A study of Mus musculus with 50 samples.

Results

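H19, Afp, Gpc3 and Igf2 are liver genes of fetal and newborn life that are shut down after birth, and they were chosen by name as such a set. Of these 4 genes, 3 (H19, Afp and Gpc3) are among the 12185 genes of the authors' liver expression table, and Igf2 was not analysed here. The table covers 50 libraries, and the levels and the main results are given with and without the library numbered 24, which is known to stand apart in other genes. The samples form 1 group. They are livers of male N2 offspring from (B6.A4 x B6)F1 mice crossed to (B6.A6 x B6)F1 mice, so that A/J alleles of chromosomes 4 and 6 segregate on a C57BL/6J background that every animal shares. The labels call the animals adult F2 males, whereas the study's methods describe N2 mice at 5 weeks of age, fasted overnight, with RNA taken from the caudate lobe. Genotypes at chromosomes 4 and 6 were not used here, and none of the 4 genes lies on either chromosome. Some genes named below do, among them Mup20, Cyp4a12a and Cyp4a12b on chromosome 4 and Mest, Sgce and Igf2bp3 on chromosome 6. Positions were looked up only for members of the gene lists used below. Genes named for their correlation with H19 or Afp, such as Mup3, Mup7, Aldh1b1, Hmgn2 and Rcc2, may lie on these chromosomes too. The part of the segregating alleles in the values of any of these genes was not tested. The library titles hold a pair of runs, 28 libraries numbered 1 to 30 and 22 numbered 31 to 59, and an animal number that starts again at library 31.

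In the fetal mouse liver, these genes are among the transcripts that mark immature hepatocytes and growing tissue. H19 is an imprinted noncoding RNA read from the maternal allele, and it shares its control region with the neighbouring paternally read Igf2, a fetal growth factor. Alpha-fetoprotein, the product of Afp, is the main plasma protein of the fetus and a relative of albumin encoded in the same gene cluster, while glypican-3, the product of Gpc3, is a cell-surface proteoglycan that restrains fetal growth. Zhx2 and Zbtb20 are zinc-finger proteins, of which Zhx2 also has homeodomains, and both are known to repress Afp in the liver after birth.

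On GRCm38, H19 (ENSMUSG00000000031) lies on chromosome 7 from 142575529 to 142578143 on the minus strand, is annotated as a lincRNA and has 2460 bases of exon. Igf2 (ENSMUSG00000048583) lies on the same strand of chromosome 7 from 142650766 to 142666816. Afp (ENSMUSG00000054932) lies on chromosome 5 from 90490737 to 90508907 on the plus strand, next to Alb (90460897 to 90476602), and has 3368 bases of exon. Gpc3 (ENSMUSG00000055653) lies on chromosome X from 52272426 to 52613950 on the minus strand, with 2690 bases of exon. An exon of H19 also holds the hairpin of miR-675 on the same strand and 2 predicted genes (Gm27483 and Gm27786) on the opposite strand, and the strand setting of the read counting is not given in the sources used here. Among RefSeq promoter entries, Igf2 had 4, which are not shown, and H19 had 0. RefSeq sequences (GRCm38.p6) are given for Afp and Gpc3 as promoters and for H19 as the 2 mature miRNAs cut from it. These miRNAs are shown because a cell can turn H19 RNA into them, and their seeds (bases 2 to 8, in capitals) differ from each other.
mmu-miR-675-5p: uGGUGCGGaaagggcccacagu
mmu-miR-675-3p: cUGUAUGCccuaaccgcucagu

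The 250 bases before the RefSeq start of Afp, of its neighbour Alb and of Gpc3 are shown because the levels of Afp and Alb are compared between livers below, and because the Gpc3 window differs from both in composition. Capitals mark the letters CCGCCC, a GC box, in the windows of Afp (chr5:90490464-90490713, plus strand), Alb (chr5:90460620-90460869, plus strand) and Gpc3 (chrX:52613975-52614224, minus strand).
Afp: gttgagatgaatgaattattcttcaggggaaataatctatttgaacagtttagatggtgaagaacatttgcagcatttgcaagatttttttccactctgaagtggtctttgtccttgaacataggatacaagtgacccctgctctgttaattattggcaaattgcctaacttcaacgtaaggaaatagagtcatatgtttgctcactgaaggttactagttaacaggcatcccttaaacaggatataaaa
Alb: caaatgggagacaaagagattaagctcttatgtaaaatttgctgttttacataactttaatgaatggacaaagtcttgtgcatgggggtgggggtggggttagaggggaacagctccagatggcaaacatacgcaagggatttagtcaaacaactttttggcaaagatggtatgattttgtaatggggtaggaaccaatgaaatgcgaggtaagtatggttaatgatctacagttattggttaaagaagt
Gpc3: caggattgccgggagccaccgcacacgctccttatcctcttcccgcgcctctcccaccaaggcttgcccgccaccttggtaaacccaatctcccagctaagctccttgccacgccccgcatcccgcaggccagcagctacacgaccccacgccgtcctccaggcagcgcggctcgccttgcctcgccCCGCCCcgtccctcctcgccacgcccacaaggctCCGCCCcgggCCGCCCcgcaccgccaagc
Searched on both strands, CCGCCC was found 3 times in the Gpc3 window and 0 times in the Afp and Alb windows, and 32.7% of all 32851 RefSeq promoter windows of this length hold it. The GC content was 36% for Afp, 39.2% for Alb and 71.6% for Gpc3, against a median of 52.4% over all windows.

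The depth and the makeup of the livers set what can be seen of such low transcripts. Each library had 11965594 to 29976557 reads on these genes, and 1 read was worth 0.0317 to 0.0864 normalized CPM (a read count relative to a library size that the authors scaled between libraries), so that 3 reads, taken here as the floor, stood for 0.0951 to 0.259. All 6 hepatocyte markers were in the table, whereas 0 of 6 muscle markers were. Their summed level ran from 74457 to 120292 normalized CPM for hepatocytes, from 97.1 to 307 for erythroid cells (7 of 12 markers in the table, without the embryonic globins), from 112 to 260.6 for stellate cells and from 17 to 41.8 for cholangiocytes (4 of 7). Libraries 8 and 10 carry 1 animal number and libraries 22 and 55 another, so the 50 libraries hold 48 animal numbers. Their values below were kept apart, and each library is counted as 1 liver. Nothing in the labels gives litters or RNA extraction batches, so the tests measure only the spread between these libraries.

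All 3 genes were transcribed at very low levels. Per kilobase of exon the mean level was 0.583 normalized CPM for H19, 0.309 for Gpc3 and 0.223 for Afp. On the same scale, Alb stood at 32546, which is 146036 times the level of Afp, and Gc, the vitamin D carrier of the same gene cluster, stood at 2723. The glypicans and syndecans in the table other than Gpc3 were higher per kilobase, with Gpc4 at 10.3, Gpc1 at 1.19 and the syndecans Sdc1 and Sdc4 at 63.8 and 133.3. Gpc2, Gpc5 and Gpc6 are not in the table, from which the authors dropped genes of low yield, so the comparison does not cover them. By mean value, H19 ranked 10828, Gpc3 11733 and Afp 11861 among the 12185 genes.

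H19 was near the floor in most livers and high in a few. Its values ran from 0 to 14.6 normalized CPM with a median of 0.334, and the mean of 1.43 ± 2.91 (SD, n = 50) was exceeded in 10 libraries. It had at most 3 reads in 19 libraries and 0 in 3 of them, against 223 reads in library 24. Counting error made up 1.15% of its variance between libraries, and its coefficient of variation of 203% was the highest among the 1156 genes with a mean from 1 to 2, whose median was 30.3%. Without library 24 the coefficient of variation was 191.1%, and the mean was 1.16 ± 2.22 (n = 49).

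Library 24 had the highest of several high values. After its 14.6 came 9.44 in library 45, 9.43 in library 22 and 8.33 in library 15, then 3.87 in library 57, 3.21 in library 6, 2.91 in library 18 and 2.70 in library 1. Both library runs held such livers. Of the libraries that share an animal number, library 22 had 9.43 (131 reads) and library 55 had 0.0803 (1 read), while libraries 8 and 10 had 0.132 and 0.426.

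**Figure D1:**
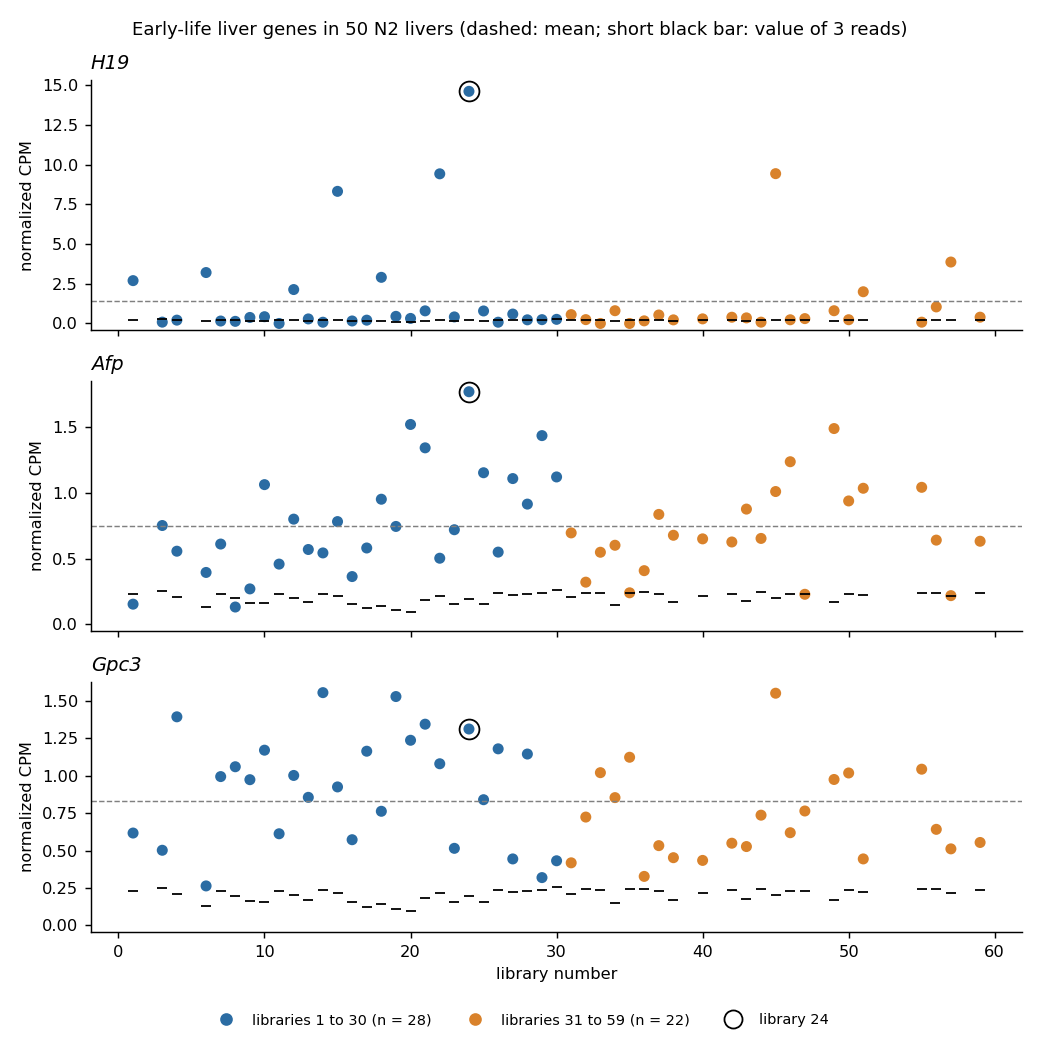
Normalized CPM of H19, Afp and Gpc3 (vertical axes, linear) against library number, with 1 point per liver, coloured by library run. The dashed line is the mean and the short black bars are the value of 3 reads in each library. H19 is near the bars in most livers and reaches 14.6 in library 24 (ringed), while Afp and Gpc3 are spread evenly up to 1.77 and 1.56.

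Afp was detected in every liver and varied within a narrower range. Its values ran from 0.133 to 1.77 normalized CPM (2 to 48 reads) with a median of 0.667, and the mean was 0.751 ± 0.377 (n = 50). The highest value was that of library 24, followed by 1.52 in library 20 and 1.49 in library 49, so that library 24 ended a continuous range. The coefficient of variation of 50.3% was exceeded by 157 of the 678 genes with a mean from 0.5 to 1. Counting error made up 35.7% of the variance, 5 libraries had at most 3 reads, and without library 24 the mean was 0.730 ± 0.351.

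Gpc3 was also detected in every liver, with 4 to 41 reads. Its values ran from 0.264 to 1.56 with a median of 0.802 and a mean of 0.832 ± 0.352 (n = 50), or 0.823 ± 0.348 without library 24. Libraries 14, 45 and 19 were highest at 1.56, 1.55 and 1.53, and library 24 ranked 6 at 1.31. Counting error made up 45.6% of its variance, and 295 of the 678 genes in the same range of means had a higher coefficient of variation than its 42.2%. Library 24 was therefore highest in 2 of the 3 genes, where it was highest in 3.04% of all genes (the share per library had a median of 1.61% and reached 9.45% in library 44).

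The 3 genes were set against each other to see whether livers high in 1 of them were high in the others. Between H19 and Afp, Pearson's r over the 50 livers was 0.159 on the log2(value + 0.5) scale (permutation p = 0.269, adjusted over the 3 pairs 0.517) and Spearman's rho was 0.279 (permutation p = 0.0494, adjusted 0.148). Without the 2 livers farthest from the H19 median r was -0.0235, and without library 24 it was 0.0302. H19 and Gpc3 gave r = 0.0939 (permutation p = 0.517, adjusted 0.517) and rho = -0.0833 (p = 0.564, adjusted 0.714), with r = -0.107 without the 2 farthest livers and 0.0146 without library 24. Afp and Gpc3 gave r = 0.111 (permutation p = 0.443, adjusted 0.517) and rho = 0.0538 (p = 0.714, adjusted 0.714), with r = 0.0981 without the 2 farthest livers and 0.0583 without library 24. Within the library runs 1 to 30 and 31 to 59, r was 0.158 and 0.142 for H19 and Afp, 0.0191 and 0.161 for H19 and Gpc3, and 0.0633 and 0.154 for Afp and Gpc3. No pair passed the threshold of 0.05, and the counting error above limits what could be seen for Afp and Gpc3.

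**Figure D2:**
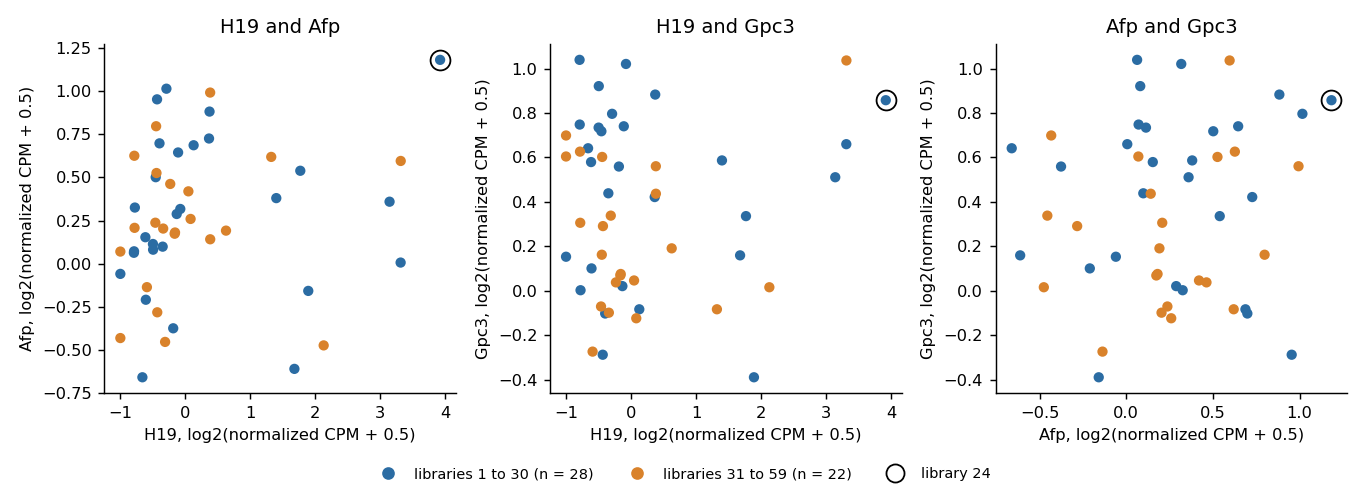
Each pair of the 3 genes, on log2(normalized CPM + 0.5) axes, with 1 point per liver and library 24 ringed. The 4 livers highest in H19 rank 1 to 39 from the highest in Afp and 2 to 22 in Gpc3, and r lies between 0.0939 and 0.159 for the 3 pairs.

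No difference between the library runs passed the test for any of the 3 genes. H19 was at 1.77 ± 3.43 in libraries 1 to 30 (n = 28; 1.30 ± 2.37 without library 24) and at 1.00 ± 2.07 in libraries 31 to 59 (n = 22), a log2 difference of -0.28 (SE 0.34, limma adjusted p = 0.625), or -0.15 (SE 0.31) without library 24. Afp was at 0.782 ± 0.414 and 0.711 ± 0.330, a log2 difference of -0.06 (SE 0.12, limma adjusted p = 0.777), or -0.03 without library 24. Gpc3 was at 0.921 ± 0.369 and 0.719 ± 0.300, a log2 difference of -0.21 (SE 0.10, limma unadjusted p = 0.0496, adjusted 0.173), or -0.19 without library 24. Among genes with a mean of at least 1, 13.5% passed between the runs, and 13% passed among all genes.

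Afp rose with animal number. Its slope was 0.40 on the log2 scale per 100 animal numbers (SE 0.11, limma p = 0.000389, Benjamini-Hochberg adjusted p = 0.00832 over all 12185 genes), and under all alternatives for this slope the adjusted p lay between 0.0067 and 0.0135. Without library 24 the slope was 0.38. Within libraries 1 to 30 it was 0.57 (r = 0.597) and within libraries 31 to 59 it was 0.22 (r = 0.285). The difference between these slopes was not past the threshold (limma interaction -0.35, SE 0.22, adjusted p = 0.685). The slope of H19 was 0.38 (SE 0.33, limma adjusted p = 0.473), with 0.25 without library 24 and -0.0011 and 0.75 within the runs, and that of Gpc3 was 0.04 (SE 0.11, limma adjusted p = 0.826), or 0.03 without library 24. Of all genes, 13.9% passed for animal number and 7.48% rose (14.2% and 7.49% of those with a mean of at least 1). What animal number stands for (birth order, litter or date) is not stated in the labels.

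Genes of related roles also varied with animal number. The gene lists used from here on were chosen with earlier results of these data known, so their counts are a description. Of 12 other early-life liver genes tested, 5 rose and 0 fell, against 7.49% rising and 6.73% falling among all genes tested. They were Igf2bp3, which binds Igf2 mRNA (slope 0.74, SE 0.11, limma adjusted p = 3.1e-05), the chromatin protein gene Hmga1 (0.25, SE 0.05), the desaturase gene Scd2 (0.34, SE 0.09), Cyp3a44 (0.27, SE 0.08) and the lipase gene Lpl (0.53, SE 0.16). Alb rose by 0.26 (SE 0.05, limma adjusted p = 0.000262). Of 19 liver genes that rise after weaning, 8 fell and 0 rose, and the count falling was 4 without library 24. The 3 lowest in adjusted p among them were Hsd3b5, Mup20 and Ugt2b1, with slopes of -1.42 (SE 0.29), -1.12 (SE 0.23) and -0.47 (SE 0.13). Adult globin genes rose as well, with 4 of 6 erythroid markers up (Hba-a1 by 0.74, SE 0.15), while Alas2 fell by 0.30 (SE 0.08). Of 9 stellate cell markers 3 rose and 0 fell (Dcn by 0.34, Col3a1 by 0.46 and Colec11 by 0.24), also without library 24, and of 6 hepatocyte markers Alb and Cps1 rose.

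Many genes varied between livers with H19. Over the 50 livers, 1401 of 11435 genes (12.3%) passed the limma test for a slope on the H19 level at an adjusted p under 0.05, with 667 rising (5.83%) and 734 falling (6.42%). The count was 1050 without library 24, of which 978 were among the 1401, and 1133 without the 4 libraries sharing an animal number. It was 263 without the 4 livers highest in H19 (15, 22, 24 and 45), of which 250 were among the 1401 (2.3% of the genes tested, with 1.03% rising and 1.27% falling). Slopes are given as log2 change per standard deviation of the log2 level of H19, which was 1.23.

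The genes with the highest r to H19 encode enzymes, a transporter and a kinase. Lpl, the lipase that frees fatty acids from circulating triglyceride, is itself known as a gene of the newborn liver. It ran from 20.2 to 141 normalized CPM with a median of 44.1, and held 141, 106, 101 and 102 in libraries 24, 45, 22 and 15, its 4 highest. Its slope was 0.53 (SE 0.06, r = 0.801, rho = 0.696, limma adjusted p = 3.9e-10). Cyp2a4, a testosterone hydroxylase that female mouse livers express more, ran from 0.627 to 77.2 with a median of 4.82 and a slope of 1.27 (SE 0.14, r = 0.791, limma adjusted p = 7.19e-10). Its reads may be split with the near-identical copy Cyp2a5, so these values are uncertain. The other 3 were the zinc transporter gene Slc39a5 (r = 0.789), the mitochondrial aldehyde dehydrogenase gene Aldh1b1 (r = 0.774) and the kinase gene Map4k4 (r = 0.772).

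The genes with the lowest r to H19 are known as male-type genes of the adult liver. Cyp2d9, a male-specific steroid hydroxylase, ran from 349 to 2168 with a median of 1662, and held 349, 626, 742 and 568 in libraries 24, 45, 22 and 15, which ranked 1, 3, 5 and 2 from the lowest. Its slope was -0.50 (SE 0.04, r = -0.897, rho = -0.655, limma adjusted p = 1.37e-15), with r = -0.946 and -0.795 within the library runs and -0.873 without library 24. Mup3 and Mup7, which encode major urinary proteins, had slopes of -0.53 (SE 0.04, r = -0.863) and -1.86 (SE 0.15, r = -0.858), and Mup7 spanned 23 to 9630 between livers. The Mup genes are near-identical copies and their reads may be split between them. All 8 genes remained past the threshold without the 4 livers highest in H19, with limma adjusted p between 1.87e-06 and 0.00141, and r then lay between 0.603 and 0.723 for the rising genes and between -0.767 and -0.652 for the falling ones.

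**Figure D3:**
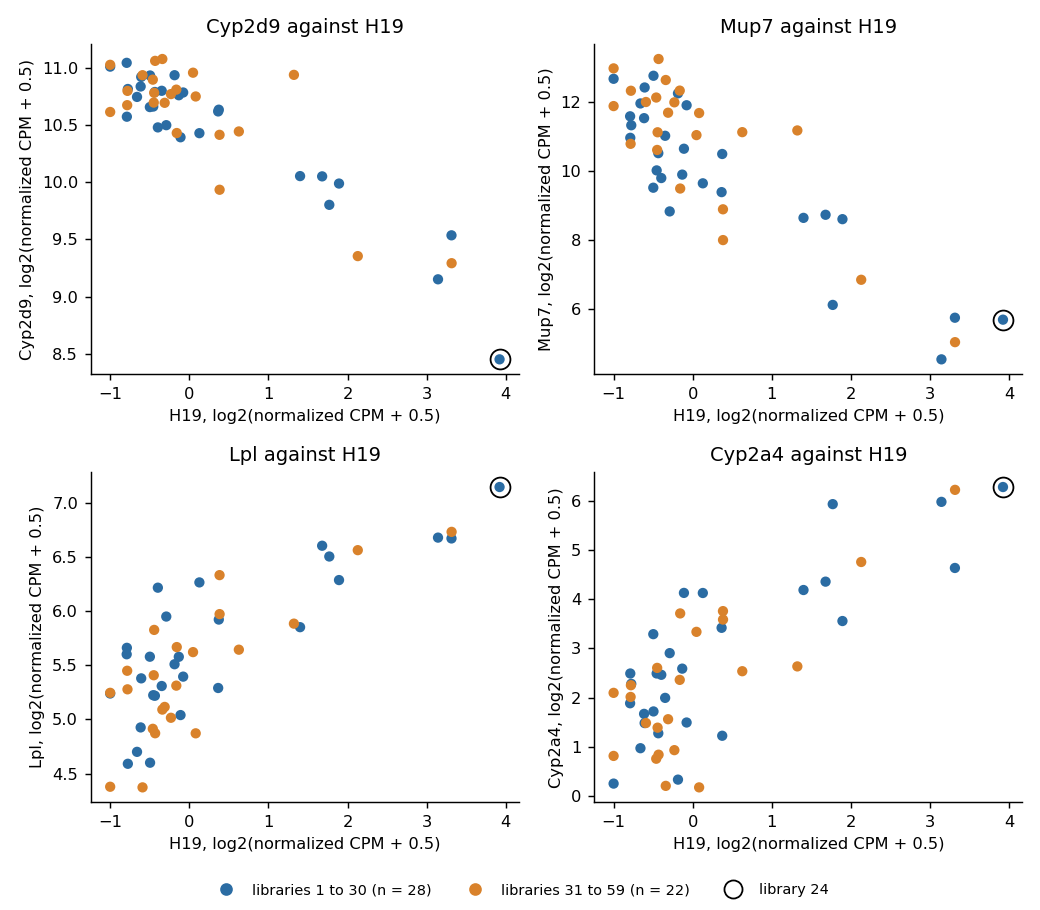
Cyp2d9, Mup7, Lpl and Cyp2a4 (vertical axes) against H19 (horizontal axes), all as log2(normalized CPM + 0.5), with 1 point per liver and library 24 ringed. Cyp2d9 and Mup7 fall (r = -0.897 and -0.858) and Lpl and Cyp2a4 rise (r = 0.801 and 0.791) with H19, in both library runs.

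The group of liver genes that rise after weaning fell with H19. The list was chosen with earlier results of these data known and holds Cyp2d9, so its counts are a description. Of its 19 tested genes, 14 fell and 0 rose, against 6.42% falling and 5.83% rising among all genes tested. The median slope was -0.38, against -0.0020 over all genes tested. The count falling was 12 without library 24, 8 without the 4 livers highest in H19 and 14 with library run and animal number in the model. Besides Cyp2d9, the lowest adjusted p was that of Cyp1a2, the caffeine-oxidizing enzyme of hepatocytes around the central vein. Cyp1a2 ran from 63.5 to 281 with a median of 192.2, was at 73.7, 91.6, 63.5 and 88.9 in libraries 24, 45, 22 and 15, its 4 lowest livers, and had a slope of -0.41 (SE 0.04, limma adjusted p = 1.94e-11). Cyp4a12a, a male-type fatty acid hydroxylase that has the close copy Cyp4a12b, had a slope of -0.58 (SE 0.07, limma adjusted p = 1.05e-08). Library 24 was the lowest of the 50 in 10 of the 19 genes, against 3.23% of all genes. It was already known to stand apart when the list was chosen, so this too is a description. Most genes on this list are also sex-biased in the mouse liver, so the list does not separate age from the male pattern.

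Imprinted genes did not move as a block with H19. Of 15 tested, 5 rose and 3 fell (4 and 3 without library 24), against 5.83% rising and 6.42% falling among all genes tested. Plagl1, an imprinted zinc-finger factor known to act on the Igf2-H19 region, had a slope of 0.37 (SE 0.05, limma adjusted p = 1.54e-06). Mest ran from 0.160 to 3.78 with a median of 1.44 and a slope of 0.34 (SE 0.05, limma adjusted p = 1.03e-05), and held 3.02, 2.63, 2.38 and 2.56 in libraries 24, 45, 22 and 15. Grb10, an adaptor that dampens insulin receptor signalling, had a slope of 0.23 (SE 0.04), and Cdkn1c and Sgce, named after their values were seen, had slopes of 0.18 and 0.13. Gnas (-0.08, SE 0.01), Snrpn (-0.15, SE 0.04) and Zrsr1 (-0.10, SE 0.03) fell. Plagl1, Mest and Gnas were the 3 past the threshold without the 4 livers highest in H19 (limma adjusted p = 0.00831, 0.00257 and 0.0130).

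The other early-life genes and the insulin-like growth factor genes varied in part, and their counts are read against the same 5.83% rising and 6.42% falling. Some genes are on more than 1 list and are counted in each. Mest is also among the imprinted genes, and Sox9 and Epcam are also among the cholangiocyte markers. Of 12 other early-life genes tested, 4 rose (Lpl, Mest, Scd2 and Sox9) and 1 fell (Epcam, slope -0.14, SE 0.04, limma adjusted p = 0.0212, and 0.104 without library 24), and Lpl and Mest were those past the threshold without the 4 livers. Of 13 genes of the growth factor axis tested, 3 rose, namely the binding protein genes Igfbp3 (0.28, SE 0.05, limma adjusted p = 7.58e-05) and Igfbp1 (0.32, SE 0.10, limma adjusted p = 0.0348, and 0.0717 without library 24) and the receptor gene Igf1r (0.19, SE 0.04). The growth hormone receptor gene Ghr fell (-0.14, SE 0.04, limma adjusted p = 0.0102). None of the 13 was past the threshold without the 4 livers highest in H19. Of 3 cell cycle genes tested, Mki67 (0.30, SE 0.06) and Cdk1 (0.13, SE 0.04) rose, with 3 rising without library 24 and 0 without the 4 livers.

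Of 16 transcription factors of Afp and H19 tested, 2 fell with H19 and 0 rose. The limma adjusted p of Zhx2, a known repressor of Afp, was 0.0336 without library 24 and 0.0193 with library run and animal number in the model. Zhx2 ran from 6.05 to 12.4 normalized CPM with a median of 10.01 and fell with H19 (slope -0.09, SE 0.03, limma adjusted p = 0.0278). It was at 9.05, 9.24, 10.4 and 6.05 in libraries 24, 45, 22 and 15, of which the last was the lowest of all. Zbtb20 had a slope of -0.03 (SE 0.06, limma adjusted p = 0.823), and Cebpb was the other of the 16 factors to fall (-0.18, SE 0.06, limma adjusted p = 0.0395, and 0.175 without library 24), against 6.42% falling among all genes tested. Without the 4 livers 0 of the 16 passed, and the limma adjusted p of Zhx2 was 0.214. With Afp the slopes of Zhx2 and Zbtb20 were -0.02 (SE 0.03, limma adjusted p = 0.745) and -0.08 (SE 0.06, limma adjusted p = 0.377). Among relatives of albumin, Afm, which encodes the vitamin E carrier afamin, rose with H19 (0.08, SE 0.02, limma adjusted p = 0.0169, and 0.199 without the 4 livers), while Alb had a slope of 0.07 (SE 0.03, limma adjusted p = 0.0742).

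Markers of other liver cells moved with H19, and their part in the results was not tested. Their counts are read against 5.83% rising and 6.42% falling among all genes tested. In bulk liver, a change in the number of cells of a type and a change in RNA per cell cannot be told apart. The summed level of the 9 stellate cell markers correlated with H19 (r = 0.521, permutation p = 0.00015, adjusted over 24 relations 0.0018; rho = 0.473), with r = 0.513 without the 2 farthest livers, 0.596 and 0.473 within the library runs and 0.492 without library 24. Of these markers, 5 rose and 0 fell, led by the pericyte gene Rgs5 (slope 0.23, SE 0.04) and the collagen gene Col3a1 (0.24, SE 0.06), and 1 rose without the 4 livers. Of 7 endothelial markers, Lyve1, Oit3 and Pecam1 rose and Clec4g fell, and 0 passed without the 4 livers. Of 6 erythroid markers, the 4 adult globins rose and Alas2, the first enzyme of erythroid haem synthesis, fell (slope -0.17, SE 0.04, limma adjusted p = 0.00125). Without library 24 the globins did not pass and Alas2 did (limma adjusted p = 0.0473), and 0 passed without the 4 livers. Of 4 cholangiocyte markers, Spp1 and Epcam fell and Sox9 rose, with 1 rising and 1 falling without library 24 and 0 passing without the 4 livers. Of 6 hepatocyte markers, 7 Kupffer cell and leukocyte markers and 6 glypicans and syndecans, 0 passed with H19. The share of reads in the 10 highest genes of a library fell with H19 (r = -0.449, permutation adjusted p = 0.00936, and -0.385 without library 24, adjusted 0.0587).

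Genes varied with Afp as well, but few did so once library run and animal number were both in the model. Of 11436 genes, 1057 (9.24%) passed, 561 rising (4.91%) and 496 falling (4.34%). The count was 679 without library 24 and 808 without the 4 libraries sharing an animal number. With library run and animal number in the model it was 3 (0.0262%), namely Hmgn2 and Aldoc rising and Rap1gds1 falling (limma adjusted p = 0.00177, 0.0327 and 0.0408). For the remaining genes, variation with Afp and with library run and animal number cannot be told apart.

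Hmgn2, which encodes a nucleosome-binding protein, was the gene most like Afp. It ran from 3.25 to 20.5 normalized CPM with a median of 8.61 and a slope of 0.33 (SE 0.05, r = 0.709, rho = 0.667, limma adjusted p = 3.36e-05), with r = 0.813 and 0.547 within the library runs and 0.675 without library 24. The next were the betaine-homocysteine methyltransferase relative Bhmt2 (r = 0.659), the phosphate transporter gene Slc20a2 (r = 0.631), the aldolase gene Aldoc (r = 0.624) and Ndufaf7 (r = 0.622), which encodes an assembly factor of respiratory complex I. Most opposed were Rap1gds1 (r = -0.693), Tubgcp4 (r = -0.661) and Rcc2 (r = -0.660), which serve small GTPases, microtubule nucleation and chromosome segregation.

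Alb, whose promoter is set beside that of Afp above, rose with Afp. It ran from 57039 to 94538 normalized CPM with a median of 76399, and its slope was 0.11 per standard deviation of the Afp level (SE 0.03, r = 0.523, limma adjusted p = 0.00669, and 0.0112 without library 24). With library run and animal number in the model the limma adjusted p was 0.345. Of 6 hepatocyte markers, Alb and Apoa1 rose with Afp, against 4.91% rising among all genes tested, and Alb did without library 24. Their summed level, of which Alb is the largest part, correlated with Afp (r = 0.534, permutation p = 9e-05, adjusted 0.0018; rho = 0.484), with r = 0.454 without the 2 farthest livers and 0.595 and 0.414 within the library runs.

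Counts of the other groups with Afp are read against 4.91% rising and 4.34% falling among all genes tested. Of 19 genes that rise after weaning, 5 fell with Afp and 0 rose, and the count was 3 without library 24. They were led by Hsd3b5 (slope -0.75, SE 0.15, limma adjusted p = 0.00138), with Ugt2b1, Mup20, Elovl3 and Cyp4a12b. Of 12 other early-life genes, Hmga1 (0.10, SE 0.03) and Igf2bp3 (0.23, SE 0.07) rose, and 1 rose without library 24. Of 13 growth factor axis genes, Igf2bp3 (on both lists) and Igfbp3 rose and Igf1 and Ghr fell, with 0 rising and 1 falling without library 24. Of 16 imprinted genes Grb10 rose, a share near the 4.91% of all genes, and 0 rose without library 24. Of 7 Kupffer cell and leukocyte markers Ptprc fell, and 2 fell without library 24. Of 6 erythroid markers the 4 adult globins rose and Alas2 fell, with 1 rising and 1 falling without library 24. With library run and animal number in the model 0 genes of any group passed.

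**Figure D4:**
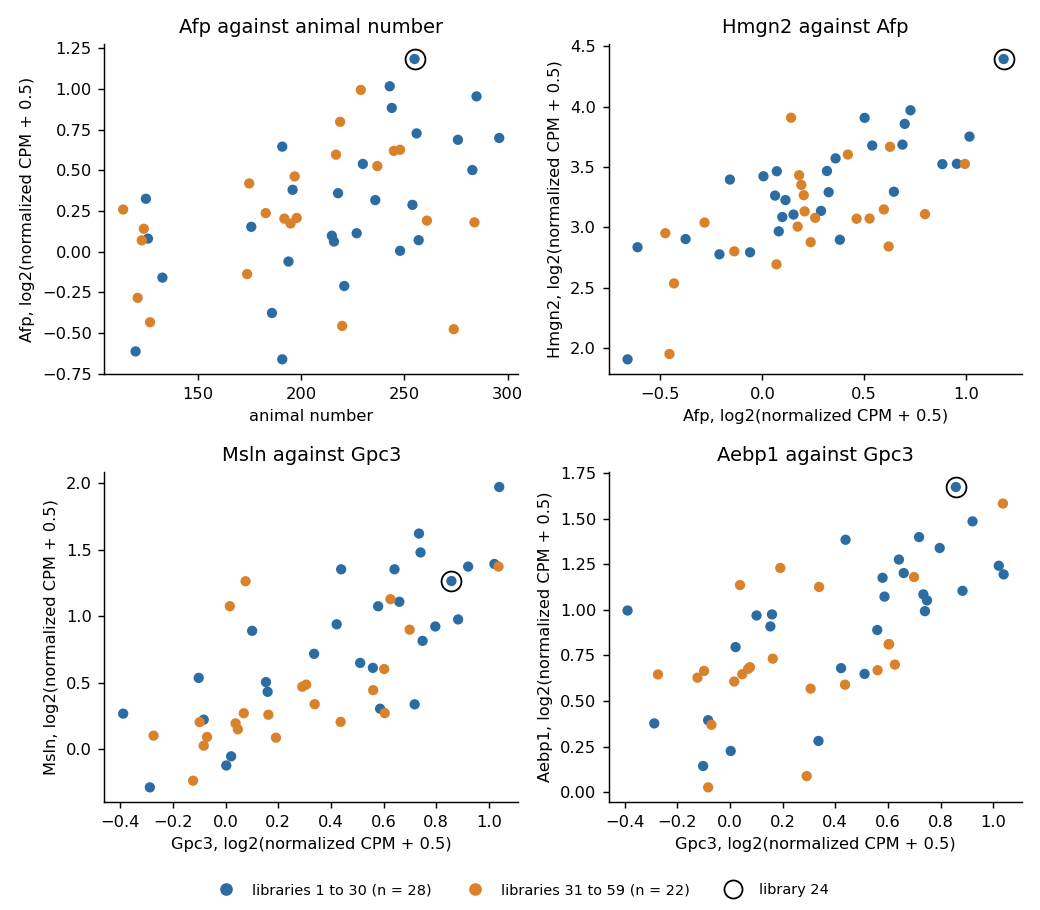
Afp as log2(normalized CPM + 0.5) against animal number (top left), Hmgn2 against Afp (top right), and Msln and Aebp1 against Gpc3 (bottom), with 1 point per liver and library 24 ringed. Afp rises by 0.40 per 100 animal numbers, and Hmgn2, Msln and Aebp1 rise with r = 0.709, 0.734 and 0.658.

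Few genes varied with Gpc3. Of 11436 genes 2 passed (0.0175%), while 700 had an unadjusted p under 0.05. Msln, which encodes mesothelin of the mesothelial cells on the liver surface, ran from 0.319 to 3.42 normalized CPM with a median of 0.934 and a slope of 0.39 (SE 0.05, r = 0.734, rho = 0.755, limma adjusted p = 4.6e-06), with r = 0.769 and 0.589 within the library runs. Aebp1, a gene of connective tissue cells, ran from 0.518 to 2.69 with a median of 1.30 and a slope of 0.26 (SE 0.04, r = 0.658, limma adjusted p = 0.00058). Without library 24 r was 0.726 and 0.643. When genes with a mean under 1 were included, Igfbp6 and Upk3b, named after their values were seen, passed as well (r = 0.709 and 0.701, limma adjusted p = 1.96e-05 and 2.2e-05). Upk3b is also a mesothelial marker.

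The genes next in r did not pass. Igfbp5 (r = 0.530, limma adjusted p = 0.127), Efemp1 (r = 0.484, limma adjusted p = 0.442) and Fmod (r = 0.476, limma adjusted p = 0.442) encode secreted proteins of the matrix, and Sgpp1, Scai and Pdcl were lowest at r = -0.566, -0.517 and -0.506 (limma adjusted p from 0.0882 to 0.381). Of 9 mesothelial genes listed after these values were seen, 4 were in the table (Msln, Upk3b, Gpm6a and Krt19), and their summed level ran from 1.80 to 7.46 normalized CPM. Msln and Upk3b prompted the list, and the other members Gpm6a and Krt19 had r = 0.206 and 0.0396 to Gpc3. The part of the covering tissue in the Gpc3 values was not tested. Of the 6 glypican and syndecan genes tested 0 passed, and 0 passed in every other group, including the stellate cell markers (r = 0.227 with their sum, permutation adjusted p = 0.225).

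**Figure D5:**
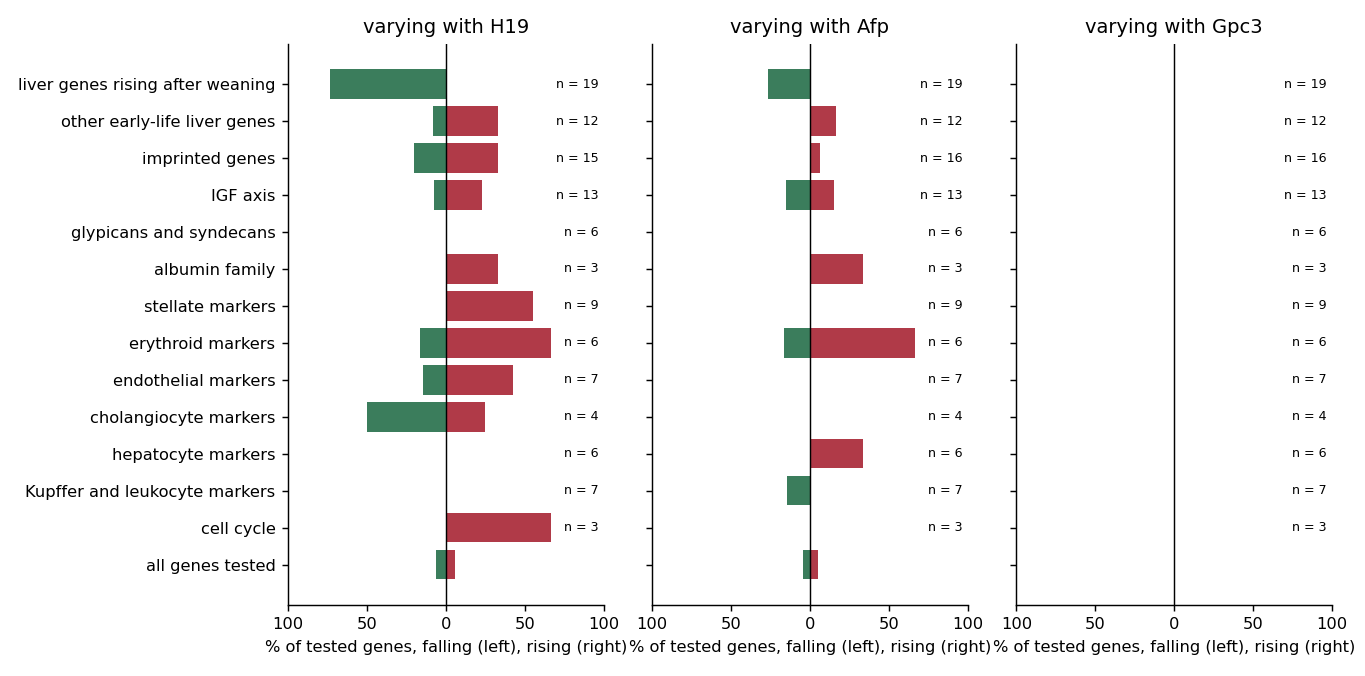
Share of the tested genes of each group (n at the right) that fell (green, left) or rose (red, right) with H19, Afp and Gpc3 at a limma adjusted p under 0.05, with all genes tested at the bottom. With H19, 14 of 19 genes that rise after weaning fell, with Afp 5 of 19, and with Gpc3 no gene of any group passed.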

How the data were processed

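Stranded poly(A) libraries were made from liver RNA. For the deposited table the authors trimmed reads, ran HISAT2 on GRCm38.p5, obtained gene counts with HTSeq 0.11.1, dropped genes of low yield and applied edgeR normalization. The deposited values are a normalized signal (CPM of a scaled library size), and dividing by the value of 1 read gave whole reads for 100% of them within 0.01.

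The main test was limma 3.58.1 (R 4.3.3), 2-sided, on log2(value + 0.5), which understates changes of low genes, for the 11436 genes with a mean of at least 1, with p-values adjusted by Benjamini-Hochberg and called under 0.05. Afp and Gpc3 have means under 1, so their own tests by library run and animal number come from the same fit over all 12185 genes. edgeR 4.0.16 (quasi-likelihood) on the whole reads was an alternative. Correlations used permutation tests with 100000 resamples. The limma and edgeR steps were tested on simulated data. Counting error was the mean times the mean value of 1 read, over the variance, and covers counting only, since PCR copies are not independent molecules. Floors cover counting error only as well.

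Named genes were, for each gene, the 5 with the highest and 3 with the lowest r among genes with a mean of at least 1, and of each gene list those past the threshold (3 in each direction where more than 6 passed), with Alb, Afm, Gc, Zhx2 and Zbtb20. The members and lists were chosen with earlier results of these data known. Leaving out the 4 livers highest in H19, the interaction with library run and the mesothelial genes were added after seeing the data. Genotypes were not used, and some list genes are not reported here. Positions came from the GENCODE annotation of GRCm38 and sequences from RefSeq. Other steps ran in Python 3.11.15 (pandas 2.3.3, numpy 2.4.6), and figures in matplotlib 3.10.9.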

Additional observations from a re-analysis of the deposited data

How the results depend on the processing

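Of 199 values under alternative settings, 9 lost the threshold, 8 changed sign and 6 gene counts moved by over 1.5 times, and the other tested values, including all 44 for animal number, kept their direction and their side of the threshold. The mean level of H19 (1.43) was 1.16 without library 24 and 0.656 when averaged on the log2 scale and transformed back. It therefore depends on library 24 and on the scale. The count between library runs fell to 889 with counted reads as a covariate, the count for H19 to 263 without the 4 livers highest in H19, and the count for Afp to 679 without library 24 and 3 with library run and animal number as covariates. The count for Gpc3 was 4 with no filter on low values and 0 (528 at an unadjusted p under 0.05, limma) among genes with a mean of at least 5. Relations to marker sums lost the threshold without library 24 and with Spearman's rho for H19 with erythroid (0.309 and 0.299), cholangiocyte (-0.334 and -0.159) and endothelial markers (0.355 and 0.342) and for Afp with erythroid markers (0.345 and 0.312), and without library 24 for H19 with the share of the 10 highest genes (-0.385).

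Values that changed sign were none of them past the threshold. They were H19 and Afp (-0.0077) and H19 and Gpc3 (-0.264) without the 4 livers highest in H19, H19 and Gpc3 by Spearman's rho (-0.0833), H19 and Kupffer cell markers (-0.0068) and counted reads (0.0348) without library 24, H19 and counted reads (0.229) and Gpc3 and Kupffer cell markers (0.0064) by rho, and the Afp difference between library runs with animal number as a covariate (0.018). The cause was not tested. Depth limits Afp and Gpc3, with totals of 597 and 664 reads over the 50 livers, more than H19 in the livers where it was high. No paired analysis was possible because the labels give 1 group.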
